A study of Mus musculus with 9 samples.

Results

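The genes described here are the phase II conjugating transferases of AML12 cells: the glutathione transferases (Gst, soluble and kappa classes), the microsomal glutathione transferases (Mgst), the sulfotransferases (Sult) and the UDP-glucuronosyltransferases (Ugt). They were chosen by symbol alone, as every gene of the table named Gst with a class letter and a digit, Mgst1 to Mgst3, Sult1 to Sult6, or Ugt1 to Ugt3 with a or b, without pseudogenes. This rule took 57 of the 30350 genes of the table, and 36 of those, whose level averaged 0.5 FPKM or more over all libraries, were compared between groups. FPKM scales fragments by the length of the gene and by depth, a level per length, so it can be set side by side between genes. AML12 is a non-tumorigenic line of mouse hepatocytes, derived from a mouse transgenic for human transforming growth factor alpha. The 9 RNA-seq libraries form 3 groups of 3: untreated cells in DMEM/F12 (NC), cells loaded with free fatty acids (FFA), and cells loaded in the same way for 24 h before 200 µM sinomenine, a plant alkaloid, joined the fatty acids for 48 h (FFA-SIN). The kind of fatty acid and the length of the NC and FFA cultures are not stated in the labels, so time in culture and sinomenine cannot be told apart in FFA-SIN against FFA. The groups carry no other treatment or genetic change that the labels name.

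Phase II enzymes attach a polar group to drugs, hormones and reactive lipid products, which makes these easier to export. Glutathione transferases add glutathione to electrophiles in the cytosol, and their microsomal relatives do so in membranes. Sulfotransferases move a sulfo group from the activated sulfate carrier PAPS onto hydroxyl and amino groups. UDP-glucuronosyltransferases, which sit in the endoplasmic reticulum, add glucuronic acid from UDP-glucuronate, and the liver is rich in all of these families.

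Sequences before the starts of the 5 tested Ugt2b genes are shown to let these neighbouring paralogs be compared. They do not bear on why the levels of these genes differ between groups. RefSeq promoter windows (build GRCm38.p6, 250 bases before to 50 after each start) were found for 34 of the 36 genes, 43 windows in all. The 120 bases before the start are shown 5′ to 3′. Capitals mark the palindrome of GTTA and TTAAC with any 4 bases between, a relaxed form of the site of the hepatocyte factor HNF1, whose letters were chosen after these windows had been read.
Ugt2b34, chr5:86906938-86907057, minus strand: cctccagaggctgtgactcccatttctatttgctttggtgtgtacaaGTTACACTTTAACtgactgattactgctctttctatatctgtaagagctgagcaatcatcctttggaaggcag
Ugt2b1, chr5:86926504-86926623, minus strand: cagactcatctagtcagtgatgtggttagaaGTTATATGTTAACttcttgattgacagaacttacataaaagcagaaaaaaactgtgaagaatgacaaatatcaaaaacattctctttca
Ugt2b35, chr5:87000740-87000859, plus strand: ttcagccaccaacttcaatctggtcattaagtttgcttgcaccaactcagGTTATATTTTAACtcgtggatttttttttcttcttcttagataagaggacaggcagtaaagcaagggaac
Ugt2b36, chr5:87092556-87092675, minus strand: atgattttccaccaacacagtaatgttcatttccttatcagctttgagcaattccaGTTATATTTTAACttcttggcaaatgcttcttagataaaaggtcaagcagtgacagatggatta
Ugt2b5, chr5:87140341-87140460, minus strand: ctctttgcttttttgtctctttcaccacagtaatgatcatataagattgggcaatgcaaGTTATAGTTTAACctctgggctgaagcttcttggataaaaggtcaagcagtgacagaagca
The palindrome began 73 bases before the start of Ugt2b34, 89 before that of Ugt2b1, 70 before that of Ugt2b35, 64 before that of Ugt2b36 and 61 before that of Ugt2b5. It lay in 5 of the 43 windows, which are these, and in 62 of 32851 windows of all genes (0.189%). The 5 genes are paralogs, so their windows are not independent of each other. The match is a description of letters and not of a bound site. By gene, 60 hold it: these 5, their untested relatives Ugt2b37 and Ugt2b38, and 53 genes that are not among the 57. Of the 53, 22 were tested. With FFA against NC 6 rose and 4 fell, with FFA-SIN against FFA 4 rose and 4 fell, and with FFA-SIN against NC 9 rose and 3 fell. Over all genes tested 34.0%, 28.3% and 47.9% passed in either direction in these comparisons. Any part of the palindrome in the levels was not tested.

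A further window is shown because Mgst1 was the 1 gene of the 36 that rose at each treatment step. Capitals mark the core of the antioxidant response element, TGACNNNGC, here read on the opposite strand and beginning 56 bases before the start.
Mgst1, chr6:138140407-138140526, plus strand: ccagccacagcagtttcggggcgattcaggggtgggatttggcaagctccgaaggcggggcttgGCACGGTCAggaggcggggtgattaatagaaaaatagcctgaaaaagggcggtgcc
This core lay in 4 of the 43 windows (1 each of Mgst1, Gsta3, Gstm5 and Gstm7) and in 12.4% of all windows. The other window of Mgst1 did not hold it. Gsta3 and Gstm7 fell with fatty acids, and Gstm5 passed the test at neither step. The match is a description of letters, and any part of it in the levels was not tested. The core of the xenobiotic response element, GCGTG, lay in 12 of the 43 and in 32.4% of all windows. Both strands were searched, and matches of different motifs may overlap.

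In the text that follows, log2 changes are on the log2(FPKM + 1) scale, which understates the change of low genes, and are given ± the standard error of a limma fit over the 13132 genes that averaged 0.5 FPKM or more. Adjusted p is by Benjamini and Hochberg over all those genes, and 0.05 is the threshold for rose or fell. Levels are FPKM, with ± for the SD over 3 libraries. The steps of the table imply between 58754487 and 64342154 reads on genes in the NC libraries, between 43126790 and 67589625 in FFA, and between 57814330 and 71271567 in FFA-SIN. These read counts rest on steps found from the values themselves. Whether replicates were cultured separately is not given in the labels, so the p-values cover only the spread among these libraries and that spread may be technical. In bulk RNA, fewer cells that make a transcript and less of it per cell cannot be told apart.

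Summed over its members, the Gst family stood at 2240 ± 28.8 FPKM in NC, 1590 ± 11.4 in FFA and 1430 ± 8.77 in FFA-SIN. The Ugt sum was 527 FPKM in NC, 416 in FFA and 289 in FFA-SIN, and the Sult sum was 347, 322 and 289 FPKM. Mgst was the exception, with a sum of 185 FPKM in NC, 223 in FFA and 212 in FFA-SIN. For each of the 4 families the libraries of the 3 groups lay apart. Taken over all 57 genes the sum was 3300 ± 35.1, 2550 ± 6.37 and 2220 ± 5.49 FPKM, and a few genes carried it: the 5 most abundant gave 66.5% of it in NC. Sums were not tested.

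**Figure D1:**
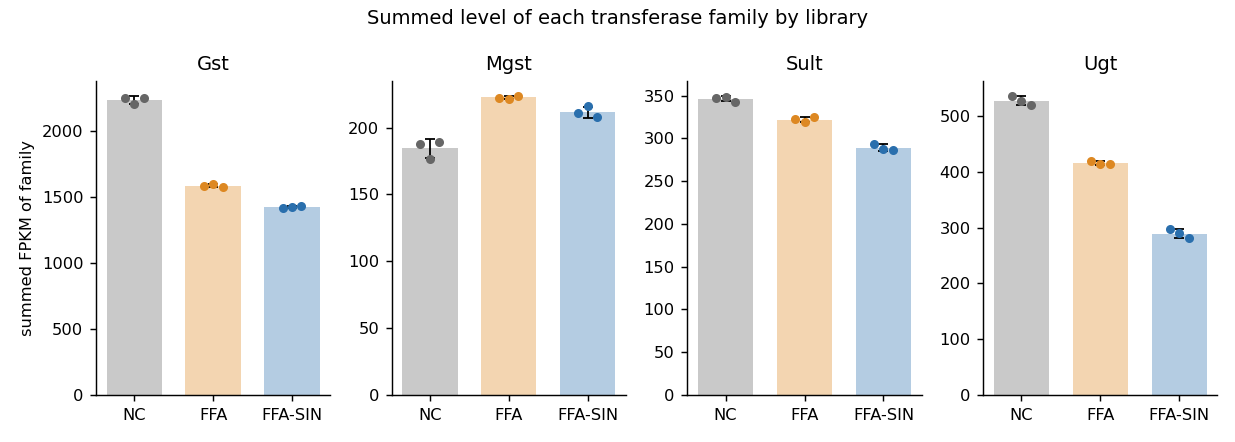
Summed FPKM (vertical axes, from 0) of the Gst, Mgst, Sult and Ugt genes in NC, FFA and FFA-SIN; points are libraries, bars the mean and error bars the SD of 3 libraries. Gst, Sult and Ugt sums step down from NC to FFA to FFA-SIN, while the Mgst sum is lowest in NC (185 FPKM) and highest in FFA (223 FPKM).

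With fatty acids against NC, 15 of the 36 genes fell, 4 rose and 17 did not pass the test. Over all genes 34.0% passed, 16.8% downward and 17.1% upward. The median log2 change was -0.08 for the 36 genes and 0.003 for all genes. With sinomenine added (FFA-SIN against FFA), 19 fell, 1 rose and 16 did not pass, where 28.3% of all genes passed, 15.7% downward and 12.6% upward, and the median was -0.19 against -0.009. For FFA-SIN against NC, 22 fell, 1 rose and 13 did not pass, where 47.9% of all genes passed, 25.0% downward and 22.9% upward. The comparisons share libraries, so values are set side by side and no overlap between them is tested.

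By family the steps differed in where the falls lay. With fatty acids, 10 of 17 Gst genes fell and 7 did not pass (median log2 change -0.40), against 1 of 6 Sult and 4 of 10 Ugt. With sinomenine on top, 8 of 10 Ugt genes fell (median -0.39), 4 of 6 Sult and 5 of 17 Gst, and the others of these 3 families did not pass. Side by side, 10 genes were lower at each step: Gsta4, Gstm1, Gstm2, Gstm3, Gsto1, Sult1a1, Ugt1a7c, Ugt2b34, Ugt2b35 and Ugt2b36. Another 5 (Gsta1, Gsta2, Gsta3, Gstm7, Gstp1) fell with fatty acids and did not pass the test at the next step. A further 7 (Mgst2, Sult1b1, Sult1d1, Sult2b1, Ugt1a6a, Ugt1a6b, Ugt2b1) did not pass with fatty acids and fell with sinomenine. Mgst3 and Ugt2b5 rose and then fell, Ugt1a9 rose and then did not pass, and Mgst1 rose at each step. The other 10 passed at neither step.

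**Figure D2:**
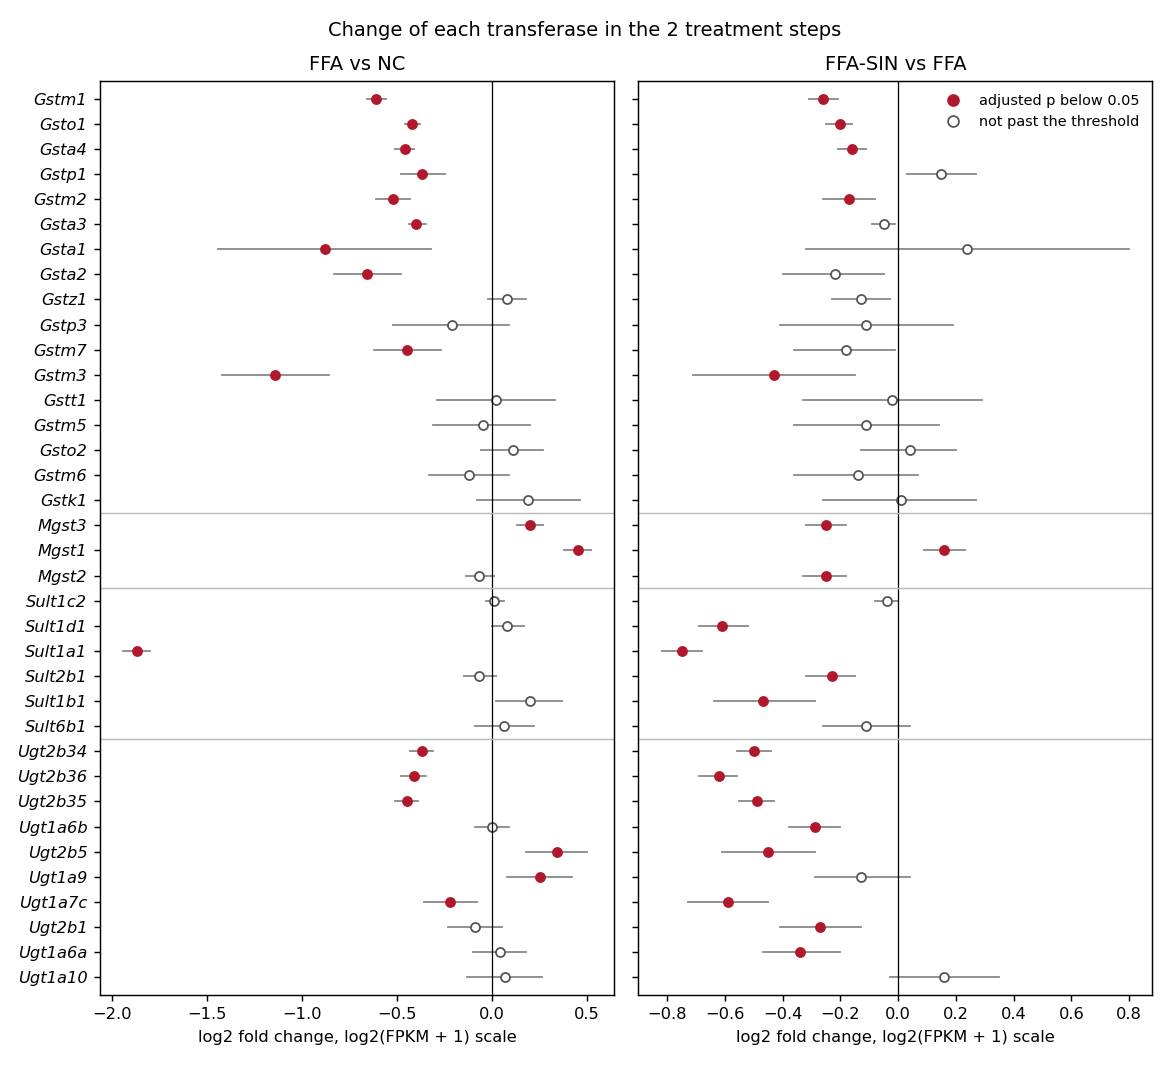
Log2 fold change on the log2(FPKM + 1) scale (horizontal axes, with different ranges) of the 36 tested genes for FFA against NC and for FFA-SIN against FFA; lines are 95% confidence intervals of the limma fit and filled points passed an adjusted p of 0.05. Filled points to the left of 0 are mostly Gst genes in the panel for fatty acids and mostly Ugt and Sult genes in the panel for sinomenine, and Sult1a1 lies farthest left in each.

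Among the soluble glutathione transferases, the mu class, which acts on epoxides and other electrophiles and lies in a run of neighbouring genes, held the most abundant member. Gstm1 (ENSMUSG00000058135), a major cytosolic enzyme of mouse liver, measured 775, 782 and 796 FPKM in the NC libraries, 506, 524 and 509 in FFA, and 422, 428 and 436 in FFA-SIN. The groups did not overlap, with NC highest and FFA-SIN lowest. Its log2 level fell by 0.61 ± 0.02 with fatty acids (adjusted p = 1.28e-07) and by a further 0.26 ± 0.02 with sinomenine (adjusted p = 2.59e-05). It gave 35.1% of the summed Gst level in NC, 32.4% in FFA and 30.1% in FFA-SIN. Gstm2, its close relative, measured 152, 155 and 152 FPKM in NC, 99.7, 113 and 108 in FFA, and 94.5, 97.1 and 92.0 in FFA-SIN. These libraries too kept apart by group, although the lowest FFA library was near the highest of FFA-SIN. The log2 changes of Gstm2 were -0.52 ± 0.04 (adjusted p = 1.81e-05) and -0.17 ± 0.04 (adjusted p = 0.0117).

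Gstm3 had the largest proportional fall of the mu class. It measured 3.28, 4.11 and 3.81 FPKM in NC, 0.865, 1.37 and 1.23 in FFA, and 0.858, 0.395 and 0.556 in FFA-SIN. NC lay far above the rest, and the highest FFA-SIN library came within 0.01 FPKM of the lowest FFA library. The level in FFA was 30.9% of that in NC (log2 change -1.14 ± 0.12, adjusted p = 0.000132). The further change with sinomenine was -0.43 ± 0.12 (adjusted p = 0.0291), and this call was lost without FFA replicate 2 (adjusted p = 0.0934), FFA replicate 3 (0.085), FFA-SIN replicate 2 (0.0954) or FFA-SIN replicate 3 (0.0792). Gstm7 measured 3.65, 3.36 and 3.04 FPKM in NC, 2.18, 2.33 and 2.05 in FFA, and 1.79, 2.1 and 1.57 in FFA-SIN. NC stood above both treated groups, which overlapped each other. Gstm7 fell with fatty acids (log2 change -0.45 ± 0.08, adjusted p = 0.00205), and the sinomenine step gave -0.18 with an adjusted p of 0.115. The remaining mu genes, Gstm5 (0.91 ± 0.121 FPKM in NC) and Gstm6 (0.677 ± 0.188), passed at neither step. Gstm6 passed for FFA-SIN against NC (log2 change -0.26, adjusted p = 0.0448), a call that did not hold when any library other than NC replicate 1 was left out (adjusted p = 0.0504 to 0.149).

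The alpha class, whose members detoxify products of lipid peroxidation, fell as a whole with fatty acids: 4 of 4 passed, with a median log2 change of -0.56, where 16.8% of all genes fell. Gsta4, which conjugates the lipid aldehyde hydroxynonenal, measured 454, 432 and 445 FPKM in NC, 326, 319 and 321 in FFA, and 292, 288 and 286 in FFA-SIN. The groups did not overlap. Its log2 changes were -0.46 ± 0.02 with fatty acids (adjusted p = 8.43e-07) and -0.16 ± 0.02 with sinomenine (adjusted p = 0.000706). Gsta3, known in mice for conjugating the epoxide of aflatoxin, went from 134 ± 1.49 FPKM in NC to 102 ± 0.779 in FFA and 98.5 ± 1.52 in FFA-SIN. Only the step with fatty acids passed (log2 change -0.40, adjusted p = 6.58e-07), and the sinomenine step gave -0.05 with a 95% interval of -0.09 to -0.01 and an adjusted p of 0.0826.

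Gsta2 and Gsta1 are closely related, inducible alpha enzymes. Gsta2 measured 11.3, 11.0 and 11.6 FPKM in NC, 7.57, 5.9 and 7.04 in FFA, and 5.88, 5.18 and 6.01 in FFA-SIN. NC stood apart, and the treated groups overlapped. Gsta2 fell with fatty acids (log2 change -0.66 ± 0.08, adjusted p = 0.000223), and the sinomenine step gave -0.22 (adjusted p = 0.0592). Gsta1 was the most variable of the abundant genes, at 18.2, 13.1 and 12.4 FPKM in NC, 8.93, 6.07 and 7.26 in FFA, and 8.0, 13.6 and 6.27 in FFA-SIN. NC lay above FFA, whereas FFA-SIN spanned both because of its replicate 2. Gsta1 changed by -0.88 ± 0.25 with fatty acids (adjusted p = 0.0227), a call lost without NC replicate 1 (0.0753), FFA replicate 2 (0.0732) or FFA replicate 3 (0.0591). The sinomenine step gave 0.24 (adjusted p = 0.521), and -0.04 without FFA-SIN replicate 2. Of the 50-base stretches of Gsta1 transcripts 90.5% also occur in other genes, and 49.8% of those of Gsta2, so reads may have been split between them. The same limit holds to a lesser degree for Gstp1 (33.7%, with Gstp2), Gstm3 (28.8%) and Gstm1 (18.9%).

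Of the other classes, Gsto1 was the second most abundant Gst gene. It encodes an omega-class enzyme that reduces dehydroascorbate and mixed disulfides, and measured 453, 448 and 450 FPKM in NC, 334, 343 and 332 in FFA, and 287, 295 and 293 in FFA-SIN. The groups kept well apart. The log2 level of Gsto1 fell by 0.42 with fatty acids (adjusted p = 6.2e-07) and by 0.20 with sinomenine (adjusted p = 6.02e-05). Its neighbour Gsto2 stood at 0.666 ± 0.104 FPKM in NC and passed at neither step. Gstp1, the pi-class enzyme, went from 224 ± 13.5 FPKM in NC to 173 ± 5.25 in FFA and 192 ± 11.0 in FFA-SIN. It fell with fatty acids (log2 change -0.37, adjusted p = 0.000642). The sinomenine step gave 0.15 with a 95% interval of 0.03 to 0.27 and an adjusted p of 0.0581. With a log2 change of -0.22 for FFA-SIN against NC (adjusted p = 0.00739), Gstp1 stayed below NC.

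The remaining Gst genes passed in no comparison. Gstz1, which isomerises maleylacetoacetate in tyrosine breakdown, stood at 5.33 ± 0.265 FPKM in NC, 5.68 ± 0.186 in FFA and 5.1 ± 0.288 in FFA-SIN. Gstt1, a theta-class enzyme, stood at 1.52 ± 0.279, 1.58 ± 0.508 and 1.51 ± 0.242 FPKM. Gstp3 stood at 5.12 ± 0.696 FPKM in NC, and Gstk1, the kappa-class enzyme of mitochondria and peroxisomes, at 0.395 ± 0.198. For Gstt1 the 95% interval of the log2 change with fatty acids was -0.29 to 0.33, so a change of that size cannot be told from none here.

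**Figure D3:**
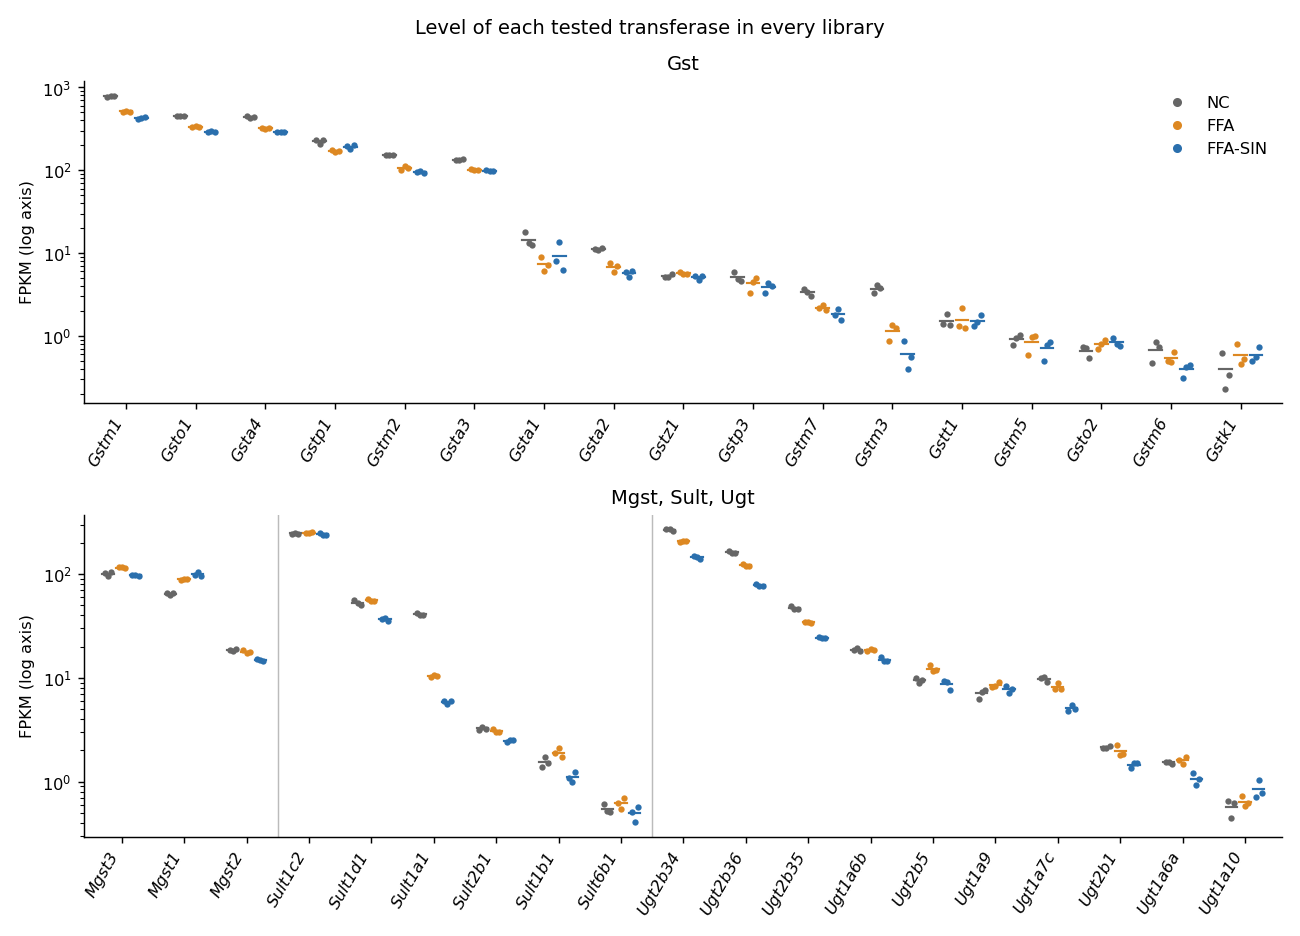
FPKM of each of the 36 tested genes (vertical log axes) in the 9 libraries, in order of level within each family; points are libraries and short lines group means. Gstm1, Gsto1 and Gsta4 lead the Gst family and step down in each group, Sult1c2 stays near 250 FPKM in all libraries, and Sult1a1 drops from about 40.9 to 5.84 FPKM.

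The microsomal family moved otherwise. Mgst1, a membrane enzyme that conjugates glutathione and reduces lipid hydroperoxides, measured 66.0, 62.9 and 65.7 FPKM in NC, 87.6, 89.1 and 90.6 in FFA, and 97.8, 104 and 97.1 in FFA-SIN. Groups did not overlap, and NC was lowest. The log2 level of Mgst1 rose by 0.45 ± 0.03 with fatty acids (adjusted p = 6.85e-06) and by 0.16 ± 0.03 with sinomenine (adjusted p = 0.00421). Mgst3, a relative with peroxidase activity, measured 103, 95.3 and 104 FPKM in NC, 116, 116 and 115 in FFA, and 98.0, 97.2 and 96.3 in FFA-SIN. FFA stood above the other groups, which overlapped. Mgst3 rose by 0.20 with fatty acids (adjusted p = 0.00133) and changed by -0.25 with sinomenine (adjusted p = 0.000356), and FFA-SIN against NC gave -0.05 (95% interval -0.12 to 0.02). Mgst2, which can make a cysteinyl leukotriene, stood at 18.7 ± 0.442, 17.8 ± 0.749 and 14.8 ± 0.339 FPKM and fell at the sinomenine step (log2 change -0.25, adjusted p = 0.0005).

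Sult1a1, the phenol sulfotransferase, fell furthest of the 36 genes at each step on the log2(FPKM + 1) scale. It measured 41.8, 40.4 and 40.6 FPKM in NC, 10.3, 10.6 and 10.5 in FFA, and 5.99, 5.55 and 5.99 in FFA-SIN. Libraries of a group lay close together and the groups far apart. The mean in FFA was 25.6% of NC, and that in FFA-SIN 14.3%. Its log2 changes were -1.87 ± 0.03 (adjusted p = 1.73e-09) and -0.75 ± 0.03 (adjusted p = 3.32e-07). In the annotation Sult1a1 overlaps exons of Sgf29 on the opposite strand, and no source used here gives the strand setting of the counting.

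Sult1c2, the most abundant sulfotransferase, measured 245, 250 and 246 FPKM in NC, 249, 247 and 253 in FFA, and 247, 240 and 241 in FFA-SIN. NC overlapped both treated groups. Its log2 change was 0.01 with fatty acids (95% interval -0.03 to 0.06) and -0.04 with sinomenine (95% interval -0.08 to 0). Its share of the summed Sult level went from 71.3% in NC to 77.5% in FFA and 83.9% in FFA-SIN. In FFA the level that was lost from the sum was mostly that of Sult1a1. The mean of Sult2b1 was also lower there (3.08 against 3.27 FPKM in NC), while Sult1d1, Sult1b1 and Sult6b1 had higher means than in NC. Sult1d1, which sulfates catecholamines in mice, measured 55.8, 52.8 and 50.9 FPKM in NC, 57.5, 55.7 and 55.7 in FFA, and 37.0, 37.7 and 35.2 in FFA-SIN. NC and FFA overlapped, and FFA-SIN lay below both. Sult1d1 fell at the sinomenine step alone (log2 change -0.61 ± 0.04, adjusted p = 4.05e-06), after 0.08 with fatty acids (adjusted p = 0.126).

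Among the lower sulfotransferases, Sult1b1, which sulfates thyroid hormones, went from 1.54 ± 0.179 FPKM in NC to 1.91 ± 0.211 in FFA and 1.1 ± 0.132 in FFA-SIN. It fell at the sinomenine step (log2 change -0.47, adjusted p = 0.00171). Sult2b1, which sulfates cholesterol and related sterols, went from 3.27 ± 0.114 to 3.08 ± 0.133 and 2.46 ± 0.0677 FPKM and fell at that step too (log2 change -0.23, adjusted p = 0.00193). Sult6b1, at 0.546 ± 0.0537 FPKM in NC, passed in no comparison. The other 8 sulfotransferase genes all had a mean below 0.1 FPKM.

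In the Ugt family the Ugt2b genes, which glucuronidate steroids and many drugs, carried most of the level. Ugt2b34 alone gave 50.8% of the Ugt sum in NC, 49.8% in FFA and 50.5% in FFA-SIN. It measured 271, 270 and 263 FPKM in NC, 206, 207 and 208 in FFA, and 150, 148 and 140 in FFA-SIN. The groups did not overlap. The log2 level of Ugt2b34 fell by 0.37 ± 0.03 with fatty acids (adjusted p = 1.23e-05) and by 0.50 ± 0.03 with sinomenine (adjusted p = 1.95e-06). Ugt2b36 measured 166, 160 and 160 FPKM in NC, 125, 120 and 119 in FFA, and 81.1, 76.7 and 77.7 in FFA-SIN. These libraries also lay in 3 separate bands. For Ugt2b36 the log2 changes were -0.41 (adjusted p = 8.75e-06) and -0.62 (adjusted p = 6.75e-07), and FFA-SIN stood at 48.4% of NC. Ugt2b35 measured 49.2, 46.5 and 46.6 FPKM in NC, 34.7, 34.4 and 34.2 in FFA, and 24.9, 24.0 and 24.0 in FFA-SIN. Here too no library of one group reached another. The log2 changes of Ugt2b35 were -0.45 (adjusted p = 2.95e-06) and -0.49 (adjusted p = 2.07e-06).

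Both remaining Ugt2b genes fell with sinomenine without a fall with fatty acids that passed the test. Ugt2b5 went from 9.45 ± 0.511 FPKM in NC up to 12.2 ± 0.88 in FFA (log2 change 0.34, adjusted p = 0.00609) and back to 8.71 ± 0.876 in FFA-SIN (log2 change -0.45, adjusted p = 0.00154). Of its 50-base stretches 41.7% occur in other genes, mainly Ugt2b38. Ugt2b1 stood at 2.15 ± 0.0527, 1.97 ± 0.237 and 1.45 ± 0.103 FPKM and fell at the sinomenine step (log2 change -0.27, adjusted p = 0.00973). So 5 of 5 tested Ugt2b genes fell with FFA-SIN against FFA, with a median log2 change of -0.49, where 15.7% of all genes fell. With fatty acids 3 of 5 fell, where 16.8% of all genes did.

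The Ugt1a genes, which act on phenols and related compounds, are built from a leading exon of their own spliced to exons that all of them share. Each of the 5 tested genes therefore shared 52.1% to 79.8% of its 50-base stretches with other genes, and their separate levels are less certain. Ugt1a7c measured 9.87, 10.3 and 9.05 FPKM in NC, 7.82, 8.98 and 7.86 in FFA, and 4.83, 5.46 and 5.05 in FFA-SIN. The highest FFA library came close to the lowest of NC, and FFA-SIN lay clearly below. Ugt1a7c changed by -0.59 ± 0.06 at the sinomenine step (adjusted p = 0.000129). The change with fatty acids was -0.22 (adjusted p = 0.0243), a call lost without NC replicate 1 (0.0664), NC replicate 2 (0.0832), FFA replicate 1 (0.0799) or FFA replicate 3 (0.0814). Ugt1a6b, at 18.7 ± 0.556 FPKM in NC and 15.0 ± 0.836 in FFA-SIN, and Ugt1a6a, at 1.53 ± 0.0403 and 1.07 ± 0.15, fell with sinomenine as well (log2 changes -0.29 and -0.34). Ugt1a9 rose from 7.07 ± 0.782 to 8.59 ± 0.46 FPKM with fatty acids (log2 change 0.25, adjusted p = 0.0273), a call lost without NC replicate 1 (0.0643), FFA replicate 2 (0.0524) or FFA replicate 3 (0.0922). Ugt1a10, at 0.57 ± 0.111, 0.643 ± 0.0732 and 0.841 ± 0.172 FPKM, passed in no comparison.

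The Ugt2b genes shown above and a group of Sult1 genes lie in a run of 11 members on mouse chromosome 5. Between them lie 2 more coding genes, Ugt2a1 and Ugt2a2, whose names match the rule but were not found among the symbols of the table. The 7 tested are Ugt2b34, Ugt2b1, Ugt2b35, Ugt2b36, Ugt2b5, Sult1b1 and Sult1d1. All 7 fell with FFA-SIN against FFA, with log2 changes of -0.62 to -0.27, where 15.7% of all genes fell. With fatty acids, where 16.8% of all genes fell and 17.1% rose, the same 7 split into 3 that fell, 1 that rose and 3 that did not pass. Their log2 changes at that step were -0.45 to 0.34. The Gstm genes form a run on chromosome 3, of which 4 of 6 tested fell with fatty acids and 3 of 6 with sinomenine. The run of Gsta4, Gsta1 and Gsta2 on chromosome 9 had 3 of 3 fall with fatty acids and 1 of 3 with sinomenine. These runs were looked at after the values of their genes were known.

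**Figure D4:**
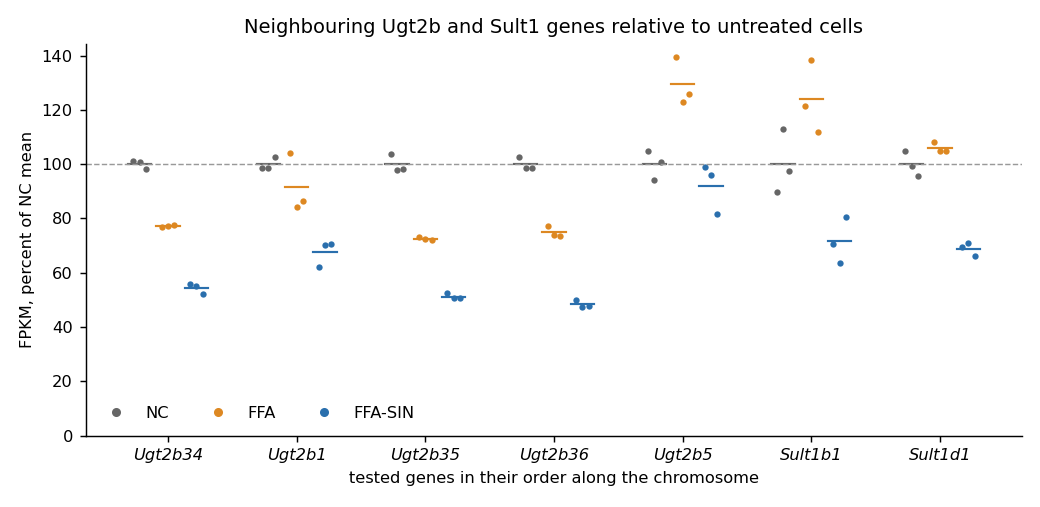
FPKM of the 7 tested genes of the Ugt2b and Sult1 run as a percent of their NC mean (vertical axis, from 0), in gene order along the chromosome without scale; points are libraries, short lines group means, and the dashed line is 100%. FFA-SIN lies below FFA for each gene, while FFA lies below NC for Ugt2b34, Ugt2b35 and Ugt2b36 and above it for Ugt2b5.

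Genes that supply or follow these enzymes were read from the same fit, and their counts stand against 34.0% of all genes that passed with fatty acids and 28.3% with sinomenine. Of 17 tested genes of glutathione synthesis and recycling, 6 rose and 8 fell with fatty acids, and 5 rose and 7 fell with sinomenine. Chac1, which degrades glutathione, went from 6.0 ± 0.675 FPKM in NC to 9.54 ± 0.3 in FFA and 17.0 ± 1.16 in FFA-SIN and rose at each step (log2 changes 0.59 and 0.78). Gss, glutathione synthetase, went from 21.1 ± 0.68 to 19.0 ± 0.545 and 14.1 ± 0.171 FPKM and fell at each step (log2 changes -0.14 and -0.40). Cth, which makes cysteine, and Slc3a2, a subunit shared by the cystine carrier and other amino acid carriers, rose with sinomenine (log2 changes 0.58 and 0.63). Slc7a11, the other subunit of the cystine carrier, did not pass at that step (log2 change 0.01, adjusted p = 0.868). It fell with fatty acids (log2 change -0.22, adjusted p = 0.000721). Of 9 tested genes of the mercapturic acid route, which trims glutathione conjugates, 4 rose and 5 did not pass with fatty acids, and 1 rose and 4 fell with sinomenine. The 4 that fell were Ggt6, a relative of the transpeptidase (log2 change -0.45), the aminoacylase Acy3 (-0.40), the conjugate lyase Kyat1 (-0.26) and the aminopeptidase Anpep (-0.25). Ggt1, the transpeptidase that opens the route, stood at 0.505 ± 0.0491, 1.01 ± 0.0389 and 1.41 ± 0.139 FPKM and rose at each step.

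Of 14 tested genes of sulfate activation and supply, 2 rose and 2 fell with fatty acids, and 4 fell and 10 did not pass with sinomenine, a share near that over all genes at each step. Papss1, a PAPS synthase, was at 41.0 ± 0.957, 40.1 ± 0.445 and 37.7 ± 1.41 FPKM (log2 change -0.09 at the sinomenine step, adjusted p = 0.0486), and the sulfate carrier Slc26a2 changed by -0.23 there (adjusted p = 2.53e-05). For UDP-glucuronate supply, 4 of 11 rose and 1 fell with fatty acids, and 2 rose and 6 fell with sinomenine. Pgm1, a phosphoglucomutase, rose at each step, from 12.9 ± 0.575 to 16.4 ± 0.338 and 21.3 ± 0.556 FPKM. Among 9 tested exporters of conjugates 6 fell and 1 rose with fatty acids, and 3 fell and 4 rose with sinomenine. Abcc3, which pumps glucuronides out of hepatocytes toward blood, was by far the most abundant of those named, at 302 ± 5.24, 252 ± 3.09 and 211 ± 3.82 FPKM, and fell at each step (log2 changes -0.26 and -0.25). Abcc10 rose at each step, from 3.99 ± 0.243 to 6.59 ± 0.226 FPKM in FFA-SIN. Of 6 tested deconjugating hydrolases, 1 rose and 5 did not pass with fatty acids, and 1 rose and 2 fell with sinomenine. Arsa, a sulfatase, rose at each step (log2 changes 0.28 and 0.14), and the sulfatases Arsk (-0.26) and Arsb (-0.23) fell with sinomenine.

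Of 24 tested regulators of phase II genes, 2 rose and 11 fell with fatty acids, and 7 rose and 6 fell with sinomenine. Over all genes 34.0% passed with fatty acids (17.1% upward, 16.8% downward) and 28.3% with sinomenine (12.6% upward, 15.7% downward). The same shares hold for the target counts below. Nr0b2, a nuclear receptor that represses others, was at 0.131 ± 0.0377, 0.131 ± 0.031 and 2.38 ± 0.272 FPKM and rose with sinomenine (log2 change 1.58, adjusted p = 5.92e-07). Nr0b2 passed the filter of 0.5 FPKM only through FFA-SIN, so that filter favoured its rise. Nr1i2, the drug sensor PXR, fell with sinomenine (log2 change -0.36, adjusted p = 0.000597), and the clock factor Dbp fell with fatty acids (log2 change -0.58, adjusted p = 3.41e-06). Hnf4a, a hepatocyte factor, stood at 131, 118 and 104 FPKM. Of 8 tested NRF2 targets outside the families, 1 rose and 4 fell with fatty acids, and 4 rose and 2 fell with sinomenine. Hmox1, heme oxygenase, rose from 24.9 ± 0.994 to 39.2 ± 1.5 and 80.7 ± 3.75 FPKM. Ephx1, an epoxide hydrolase, fell from 367 ± 1.46 to 329 ± 4.89 and 290 ± 2.79 FPKM. Of 4 tested AhR targets, 2 rose and 1 fell with fatty acids, and 1 rose and 3 fell with sinomenine. Aldh3a1, an aldehyde dehydrogenase, fell at each step, at 97.8 ± 2.99, 56.1 ± 1.26 and 21.5 ± 1.04 FPKM. The cytochromes Cyp1a1 and Cyp1a2 rose with fatty acids (log2 changes 0.42 and 0.38) and fell with sinomenine (-0.43 and -0.81), and Tiparp rose with sinomenine (0.22). Of 5 tested CAR and PXR targets, 1 rose and 2 fell at each step. Cyp2b10, at 4.72 ± 0.0235, 1.88 ± 0.23 and 0.636 ± 0.0878 FPKM, and Cyp2c55 (log2 changes -0.95 and -0.20) fell at each step, Por rose with fatty acids (0.21) and Cyp3a13 rose with sinomenine (0.21).

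The label of hepatocyte was read against markers. Of 12 hepatocyte markers in the table, 10 had a mean of at least 0.5 FPKM, and Cyp2e1 and Cyp3a11 were below 0.1 FPKM. Their summed level was 1250 to 1270 FPKM in NC, 1740 in FFA and 2390 to 2410 in FFA-SIN, so it was higher in the groups in which the transferase sum was lower. Markers of bile duct and progenitor cells summed to 1840 to 1920, 1750 to 1770 and 1550 to 1570 FPKM, mostly from Krt19, and Epcam was below 0.1 FPKM. Stellate cell and fibroblast markers summed to 9.94 to 10.2, 5.65 to 6.66 and 3.14 to 3.35 FPKM, nearly all of it Des (9.73, 5.81 and 2.94), while 4 of the 6, Lrat, Pdgfrb, Dcn and Col3a1, were below 0.1 FPKM. Macrophage markers summed to 1.89 to 2.74 FPKM and endothelial markers to 0.142 to 0.388 FPKM over all libraries. The part of these shifts in the results was not tested.

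The 21 genes of the families below 0.5 FPKM were 5 Gst, 8 Sult and 8 Ugt genes, and they were not tested. Just inside the limit lay Gstk1 with a mean of 0.526 FPKM, and just outside it Gstp2 with 0.446 and Ugt2a3 with 0.245. Gstk1 in NC, Gstm6 in FFA-SIN and Sult6b1 in FFA-SIN had a group mean below 0.5 FPKM and passed through their other groups.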

How the data were processed

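The authors deposited 1 table of 30350 genes and 9 libraries, whose values were taken as FPKM: its unit is not named, but within a gene all 205016 values were whole multiples of 1 read within 0.01 (100%). Per the labels' protocols, total RNA with an integrity number of at least 7 went into TruSeq Stranded libraries. Per the submitters' processing notes, Trimmomatic and HISAT2 with GRCm39 were used; no source used here gives the counting tool or strand setting. Symbols for 28734 genes (94.7%), exon overlaps and shared 50-base stretches came from GENCODE vM21 by gene identifier, and promoter windows from RefSeq GRCm38.p6.

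Genes averaging 0.5 FPKM or more were fitted with limma 3.58.1 (R 4.3.3) on log2(FPKM + 1), 9 libraries in 1 fit with a mean per group and a variance trend, two-sided, adjusted by Benjamini and Hochberg within a comparison, threshold 0.05. The fit was tested on simulated data. Alternatives changed the pseudocount, filter, scaling, block, trend, groups in the fit and libraries; limma voom on the recovered reads was added after seeing the data. The members and lists were chosen with earlier results of these data known. Values per library are given for Gstm1, Gsta4, Sult1a1, Ugt2b34 and the most abundant gene of each family. They are also given for genes that passed with a log2 change of at least 0.5 in any comparison. Of each list up to 4 called genes with the largest change were eligible to be named. Hnf4a and Slc7a11 were added after their values were seen. No library pair was identical. Scripts ran in Python 3.11.15 with pandas 2.3.3 and matplotlib 3.10.9.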

Additional observations from a re-analysis of the deposited data

How the results depend on the processing

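Over 19 alternatives, 9 of which leave out a library, the counts of called transferases ranged from 16 to 19 for FFA against NC, 19 to 22 for FFA-SIN against FFA and 22 to 26 for FFA-SIN against NC, and counts over all genes stayed within 1.5 times. Scaling shifted the balance of calls over all genes: with TPM 1818 rose and 2570 fell for FFA against NC (2252 and 2209 as reported), and with median-of-ratios scaling 1888 rose and 1820 fell for FFA-SIN against FFA (1652 and 2065 as reported), while transferases called were 4 up and 15 down, and 2 up and 19 down, in those settings. Of 2034 values of single genes, 1950 kept direction and side of the threshold, 33 lost their call, 30 gained one and 21 changed sign, the last only for genes that passed in neither setting. Sign changes with TPM were Gstt1 (-0.0006) and Sult1c2 (-0.01) for FFA against NC, and for FFA-SIN against NC Gstt1 gave 0.0039 with median-of-ratios scaling and 0.01 with limma voom. Leaving out a library ranged Gstt1 from -0.14 to 0.11, Ugt1a6b from -0.02 to 0.02 and Gstm5 from -0.11 to 0.06 for FFA against NC. For FFA-SIN against FFA it ranged Gsto2 from -0.01 to 0.08, Gstk1 from -0.05 to 0.09, Gstt1 from -0.12 to 0.13 and Gsta1 from -0.04 to 0.46, and for FFA-SIN against NC Gstt1 from -0.08 to 0.08. The cause was not tested. Without a filter on low values, Ugt1a9, Ugt1a7c and Gsta1 (FFA against NC), Gstm3 (FFA-SIN against FFA) and Sult1b1 and Gstm6 (FFA-SIN against NC) also lost their calls, and Sult1b1 did so without NC replicate 2 (adjusted p = 0.0585) or FFA-SIN replicate 2 (0.0579). Deviations of same-numbered libraries from their group means correlated weakly (-0.031 to 0.123, 1 of 9 above 0.1). Those of other pairs gave -0.127 to 0.085. Such weak correlations cannot show whether the numbers pair the libraries. With the replicate block 19, 22 and 23 transferases were called and 4390, 3668 and 6247 genes in all. At the sinomenine step the block ended the call of Gstm3 (adjusted p = 0.0563) and added Gstp1 (0.00668), Gsta2 (0.0149) and Gstz1 (0.0476). Depth limits the genes with the fewest reads: among the tested genes Gstk1 went down to 20 reads in a library, Gstm3 to 30 and Gstm5 to 32.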
